A study of Mus musculus with 18 samples.

Results

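The nuclear-encoded genes of oxidative phosphorylation were followed through 18 RNA-seq libraries of newborn mouse brain. A gene was a member where its name in the deposited tables was that of a subunit of the respiratory complexes or of ATP synthase (names starting with Nduf and a subunit letter and number, Sdha to Sdhd, Uqcr, the Cox subunits of complex IV, and Atp5). This gave 87 names, of which 81 stood in every table. Complex I held 38 of them, complex II 4, complex III 8, complex IV 18 and ATP synthase 16, and 3 were associated factors that the same name pattern takes in (Cox7a2l, Atp5s and Atp5sl). The tables held 82 of 23138 gene names for the Kdm2b hippocampus, 82 of 23398 for the neurospheres, and 86 of 54429 each for the cortex and the Rnf2 hippocampus. The names Cox4i1, Ndufab1 and Cyc1, subunits of the same complexes, fall outside the pattern and are treated with the related genes.

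All tissue was from postnatal day 0. Control hippocampus (HP) of Kdm2bfl/+ or Kdm2bfl/fl mice (n = 3) was compared with HP of Kdm2bEmx1-ΔCxxC conditional knockouts (cKO, n = 3), in which Emx1-Cre, active in the dorsal telencephalon, removes the exon for the CxxC zinc finger with which KDM2B binds CpG islands. The same genotypes were compared in neurospheres grown from P0 hippocampal neural progenitor cells with FGF2 and EGF (2 control, 2 cKO) and in cortex (2 control, 2 cKO). Hippocampus of Rnf2fl/+ or Rnf2fl/fl controls (n = 2) was compared with that of Rnf2Emx1-cKO mice (n = 2). Rnf2 encodes RING1B, the ubiquitin ligase of Polycomb repressive complex 1. Controls with 1 and with 2 floxed alleles share a label and cannot be told apart. The Emx1-Cre lineage spares interneurons, microglia, vessels and meninges, so cKO tissue still holds cells with an intact allele.

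Oxidative phosphorylation makes most of the ATP of a neuron. Complexes I and II pass electrons from NADH and succinate to ubiquinone, complex III passes them on to cytochrome c, complex IV reduces oxygen, and ATP synthase uses the proton gradient that complexes I, III and IV build. Most subunits are encoded in the nucleus, and a core set of complexes I, III, IV and ATP synthase is encoded in mitochondrial DNA. Several complex IV subunits and the c subunit of ATP synthase come in interchangeable forms encoded by separate genes, some of which are typical of heart and skeletal muscle or of testis.

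Kdm2b total FPKM (fragments counted per kilobase of gene and scaled by library size) was 28.1 to 31.9 in control HP and 26.2 to 28.2 in cKO HP. The deletion takes out a single exon, so the gene total does not check the genotype. Rnf2 measured 30.8 to 32.3 FPKM in its controls and 27.8 to 28.5 in Rnf2 cKO HP (log2 difference -0.16, SE 0.10, adjusted p = 0.76, limma), lower in both cKO libraries without overlap. Summed FPKM of 10 neuron markers was 2783 to 2882 in control HP and 331 to 337 in control neurospheres, while 10 progenitor markers summed to 1013 to 1099 and 3792 to 4219. The cortical table has another format, and within it the neuron markers of the controls summed to 2339 to 2361 and the progenitor markers to 538 to 647. Recovered reads came to 18462829 to 21883976 per cortical library and 14654653 to 16334184 per library of the Rnf2 set. The paper gives a common sequencing depth for its RNA-seq libraries, but reads of each HP and neurosphere library could not be recovered. One neurosphere library, control 1, carried 22.7% of its named FPKM in a single microRNA entry, Mir6236. In the same library 29.3% of all FPKM lay in entries without a gene name. That share was 1.12% in control 2, 0.876% in cKO 1 and 1.95% in cKO 2. Nothing in the labels says that libraries of a group came from separate litters, so p-values measure the spread between these libraries.

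The members were among the most abundant transcripts of the control HP. Their median control level was 101 FPKM against 9.92 FPKM over the 13446 genes tested, and 42 of the 82 members reached 100 FPKM, a level met by 4.31% of all genes tested. Per unit of gene length, ATP synthase subunits had the highest median (186 FPKM), followed by complex III (170), complex IV (123), complex I (88.6) and complex II (68.2). Medians of complexes in this order were not tested, and the members of each complex spanned a wide range, from 16.2 to 245 FPKM within complex I. The most abundant member was Cox6a1, a small structural subunit of complex IV, at 605 ± 13 FPKM (SD, n = 3).

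Subunits with central roles ranged widely in level. In control HP, Atp5b and Atp5a1, which form the catalytic head of ATP synthase, stood at 455 ± 11 and 301 ± 5.5 FPKM (SD, n = 3). Uqcrc1, a core protein of complex III, measured 101 ± 3.3 FPKM, and Uqcrfs1, the Rieske iron-sulfur protein of the same complex, 89.0 ± 4.1. Cox5a, a matrix-side subunit of complex IV, stood at 186 ± 2.7 FPKM. Of the 9 subunits described here the lowest were Sdha, Ndufv1 and Ndufs1, of complexes I and II. Sdhb and Sdha, the iron-sulfur and flavin subunits of succinate dehydrogenase, measured 90.6 ± 3.7 and 62.5 ± 1.9 FPKM, Ndufv1, which binds NADH, 63.5 ± 0.39, and Ndufs1, an iron-sulfur protein of the NADH arm, 32.6 ± 1.9. The small subunits Ndufa3 (245 FPKM), Cox7c (403 FPKM) and Atp5k (464 FPKM) stood high within their own complexes. Ndufa3 exceeded Ndufv1 and Ndufs1, and Cox7c exceeded Cox5a, without overlap, while Atp5k overlapped Atp5b.

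The share of named expression that the members took was steady within HP and varied between libraries of the other sets. It was 3.08 to 3.10% in the 3 control HP libraries and 2.95 to 3.07% in the 3 cKO libraries, which did not overlap. In neurospheres the controls stood at 3.05 and 3.80% and the cKO at 3.51 and 3.78%, and leaving out Mir6236 gave 3.95 and 3.80% against 3.51 and 3.83%. In cortex the controls stood at 1.82 and 1.43% and the cKO at 1.76 and 1.87%. The Rnf2 set measured 1.37 and 1.04% in controls and 1.26 and 1.21% in cKO, and in both of these sets control 2 was the lowest library. Within the members, complex I took 28.3 to 29.0% of their FPKM in the 6 HP libraries, ATP synthase 29.8 to 30.5%, complex IV 26.1 to 27.2%, complex III 10.7 to 11.3% and complex II 2.47 to 2.62%.

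**Figure D1:**
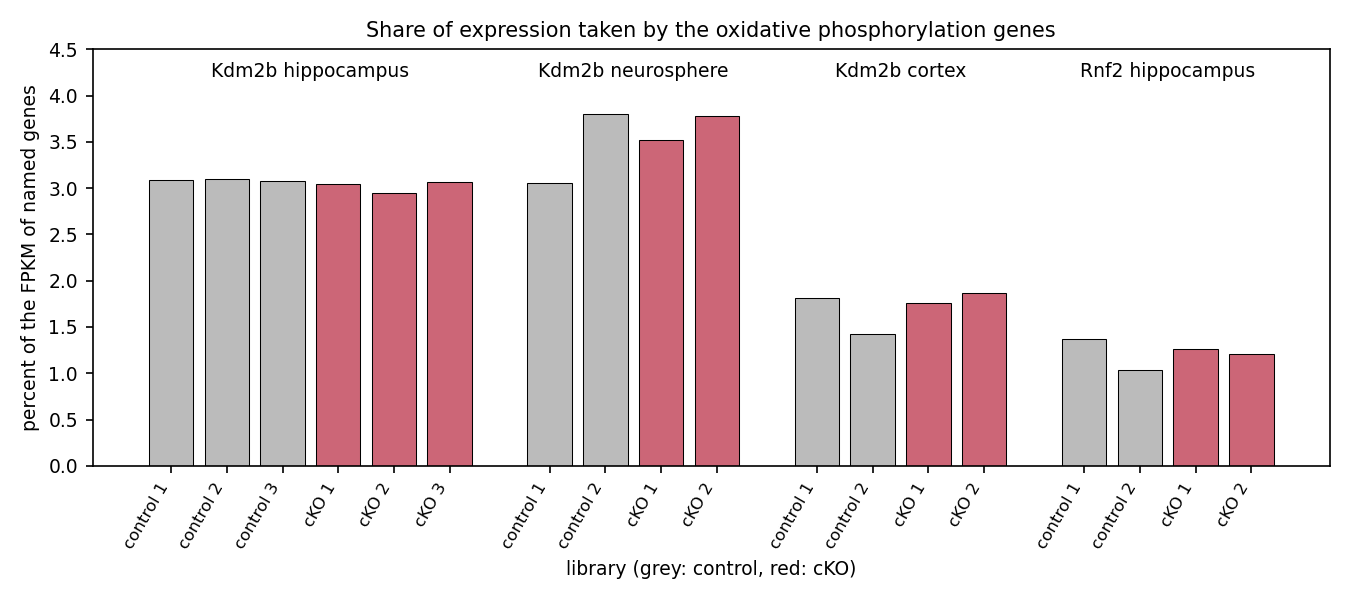
Percent of the FPKM of named genes taken by the oxidative phosphorylation members (vertical axis) in each of the 18 libraries (horizontal axis, grey control, red cKO, 1 bar per library with no error). The 6 HP libraries sit between 2.95 and 3.10%, and control 2 is the lowest library in the cortex (1.43%) and in the Rnf2 set (1.04%).

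Members stood higher in cultured progenitors than in the tissue they came from. Control neurospheres exceeded control HP without overlap for 66 of the 80 members with a value above the filter in either table, against 47.4% of all genes, and stood below it for 6, against 39.8% of all genes. The median difference was 0.60 on the log2(FPKM + 1) scale against 0.09 over all genes. Each table was scaled by itself and the groups differ in preparation, so these are levels set side by side with no test. Every member of complex II (4 of 4, median 0.83) and complex III (8 of 8, median 0.66) was higher in culture, with 13 of 15 in ATP synthase (median 0.73), 27 of 35 in complex I (median 0.53) and 11 of 15 in complex IV (median 0.41).

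Individual subunits differed by very unequal amounts. Sdhc, a membrane anchor of complex II, stood at 73.8 FPKM in HP and 178 FPKM in neurospheres, a log2 difference of 1.26. The 6 members lower in culture were Ndufa4l2, Ndufv3, Ndufs4, Atp5g1, Cox5b and Ndufb2. Of these, Ndufv3, Ndufs4, Cox5b and Ndufb2 were named after their values were seen. Ndufv3, an accessory subunit of the NADH arm, measured 123 FPKM in HP and 74.7 in neurospheres (-0.71), Ndufs4 59.7 and 41.3 (-0.52), and Cox5b 253 and 211 (-0.26). Ndufa4l2, a relative of the complex IV subunit Ndufa4 that is induced by low oxygen, measured 2.42 FPKM in HP and 0.34 in neurospheres (-1.34).

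The cortical and Rnf2 tables share a format, and control cortex was above control Rnf2 hippocampus without overlap for 44 of 80 members (45.1% of all genes), below it for 2 (32.6% of all genes) and overlapped it for 34. The median difference was 0.36 against 0.12 over all genes. Levels of members in these tables were not set against the HP and neurosphere tables, because the same gene in the same tissue differed by format: Atp5g1 read 155 FPKM in control Kdm2b HP and 12.9 FPKM in control Rnf2 HP, where the table gives the gene a length of 4912 bases.

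**Figure D2:**
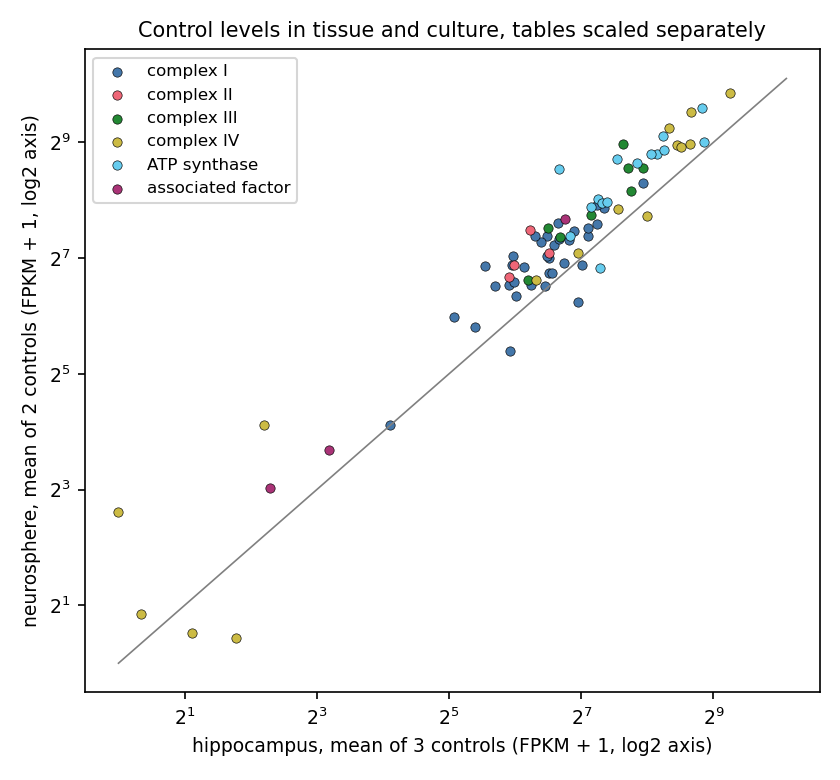
Mean control level of each member in neurospheres (vertical, 2 libraries) against HP (horizontal, 3 libraries), both as FPKM + 1 on log2 axes, with 1 point per member coloured by complex and a line of equal level. Most points lie above the line, with a median log2 difference of 0.60, and the points well above or below it at low levels are complex IV members such as Cox8b and Ndufa4l2.

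Interchangeable forms of complex IV subunits were almost entirely of the common kind. Cox6a1 made up at least 99.6% of the summed FPKM of Cox6a1 and its muscle form Cox6a2 in every library. Cox7a2 made up at least 97.1% of the sum with its muscle form Cox7a1, Cox8a at least 98.1% of the sum with its muscle form Cox8b, and Cox6b1 at least 96.3% of the sum with its testis form Cox6b2. Cox7b2 did not exceed 0.37 FPKM and Cox8c was listed at 0 in all libraries, and Cox7b stood at 78.9 ± 7.2 FPKM in control HP.

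Of the minor forms, Cox8b and Cox6b2 stood higher in culture, as did Cox6a2 at low levels, while Cox7a1 and Ndufa4l2 did not. Cox6a2 read 0.40 to 1.22 FPKM in control neurospheres and 0.14 to 0.38 in control HP. Cox8b was listed at 0 in all 6 HP libraries and all 4 libraries of the Rnf2 set. It read 5.75 and 4.43 FPKM in control neurospheres and 5.34 and 11.9 in cKO neurospheres. Cox6b2 read 3.74, 3.14 and 3.91 FPKM in control HP and 16.8 and 15.8 in control neurospheres, a log2 difference of 1.91 with no overlap. Cox7a1 read 0 to 0.87 FPKM in control neurospheres and 0.38 to 1.70 in control HP, and Ndufa4l2 0.20 to 0.49 and 1.94 to 2.90. Markers of striated muscle, 8 genes, summed to no more than 4.05 FPKM in any HP library and 1.48 in any neurosphere library.

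The c subunit of the ATP synthase rotor differed between control Kdm2b HP and control neurospheres in which gene supplied it. Atp5g1, Atp5g2 and Atp5g3 encode the same mature protein with different import sequences. In control HP Atp5g1 took 27.7 to 27.8% of their summed FPKM, Atp5g2 16.2 to 19.1% and Atp5g3 53.0 to 56.1%. In control neurospheres Atp5g1 took 11.8 to 12.02% and Atp5g2 34.9 to 43.4%. Tissue in the other format did not share the Kdm2b HP pattern. In control Rnf2 HP Atp5g1 took 10.8 to 12.5% and Atp5g2 32.8 to 35.4%. In control cortex the shares were 6.94 to 7.90% and 43.9 to 47.1%. The part of format in these shares was not tested. Atp5g2 stood at 99.9 FPKM in HP and 372 FPKM in culture (log2 difference 1.89), and Atp5g1 at 155 and 113 FPKM (-0.45).

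**Figure D3:**
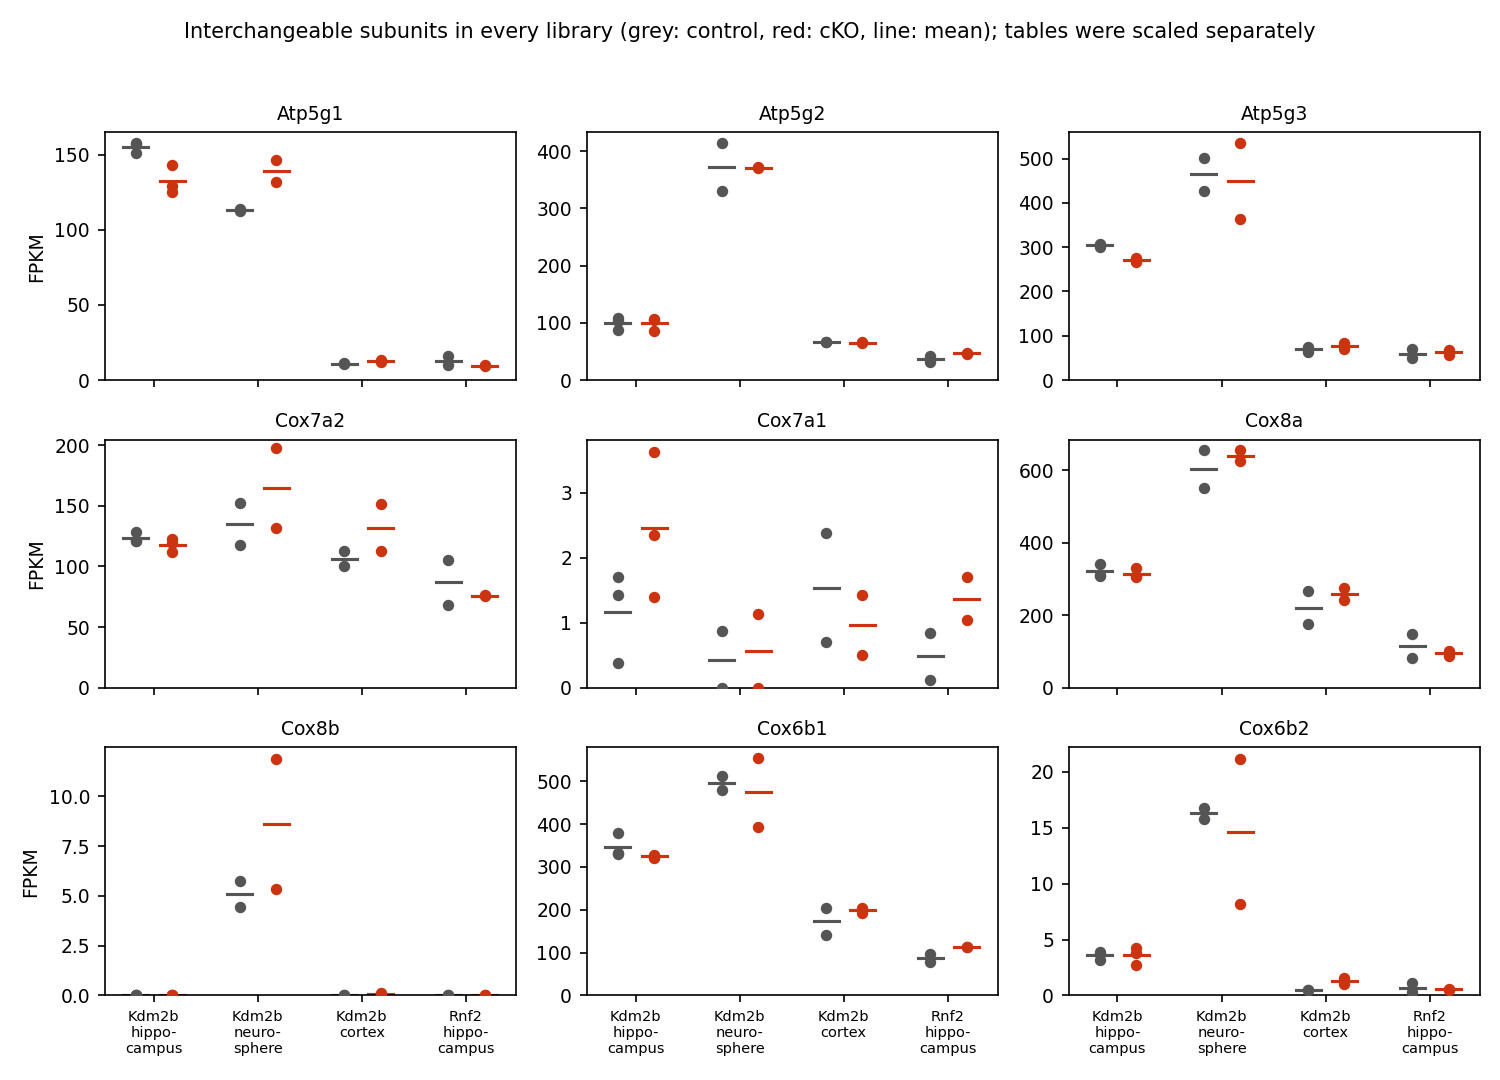
FPKM of 9 interchangeable subunits in every library, with 1 panel per gene, linear axes from 0, grey points for control, red for cKO and a line for each group mean. Cox8b is above 1 FPKM only in the neurospheres, and Atp5g1 is lower in cKO than in control HP but higher in cKO than in control neurospheres.

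The promoters of the members were mostly rich in CpG, the sequence feature that the CxxC zinc finger recognises. RefSeq promoter windows (GRCm38.p6, 250 bases before to 50 after the start, 300 bases) were found for 69 of the 87 members, 66 by symbol and 3 by an older symbol, in 75 windows. They held a median of 19 CpG (range 2 to 43) against 7 over all 32851 windows, and 94.7% of them held 10 or more against 43.5% of all windows. These windows are printed because they pair a widely expressed form with its tissue-restricted relative, and add the window of Atp5g1. Capitals mark CpG.

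Cox7a2, chr9:79759804-79760103, minus strand, 20 CpG: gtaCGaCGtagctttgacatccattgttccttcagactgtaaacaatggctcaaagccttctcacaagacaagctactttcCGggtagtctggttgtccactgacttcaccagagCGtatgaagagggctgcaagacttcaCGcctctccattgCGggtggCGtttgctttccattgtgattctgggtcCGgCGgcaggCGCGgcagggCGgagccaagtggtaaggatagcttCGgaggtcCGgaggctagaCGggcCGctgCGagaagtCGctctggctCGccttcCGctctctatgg
Cox7a1, chr7:30183921-30184220, plus strand, 7 CpG: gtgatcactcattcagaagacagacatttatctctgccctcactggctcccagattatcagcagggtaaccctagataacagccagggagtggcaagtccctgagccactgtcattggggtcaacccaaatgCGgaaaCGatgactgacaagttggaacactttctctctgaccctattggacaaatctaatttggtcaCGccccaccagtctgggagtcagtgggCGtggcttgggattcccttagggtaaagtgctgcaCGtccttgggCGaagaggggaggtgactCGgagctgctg
Cox8a, chr19:7217567-7217866, minus strand, 19 CpG: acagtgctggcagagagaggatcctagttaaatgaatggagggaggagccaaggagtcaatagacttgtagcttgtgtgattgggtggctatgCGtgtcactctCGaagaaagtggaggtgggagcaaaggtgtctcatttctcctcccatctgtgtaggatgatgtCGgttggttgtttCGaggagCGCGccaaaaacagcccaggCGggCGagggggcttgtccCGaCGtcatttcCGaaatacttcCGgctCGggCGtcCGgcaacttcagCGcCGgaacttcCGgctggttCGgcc
Cox8b, chr7:140900397-140900696, minus strand, 2 CpG: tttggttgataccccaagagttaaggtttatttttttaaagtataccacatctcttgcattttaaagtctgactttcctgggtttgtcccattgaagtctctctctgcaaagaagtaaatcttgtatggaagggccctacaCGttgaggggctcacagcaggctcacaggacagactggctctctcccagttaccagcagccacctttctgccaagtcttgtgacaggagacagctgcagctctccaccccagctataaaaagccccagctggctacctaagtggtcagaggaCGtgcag
Cox6b1, chr7:30626065-30626364, minus strand, 17 CpG: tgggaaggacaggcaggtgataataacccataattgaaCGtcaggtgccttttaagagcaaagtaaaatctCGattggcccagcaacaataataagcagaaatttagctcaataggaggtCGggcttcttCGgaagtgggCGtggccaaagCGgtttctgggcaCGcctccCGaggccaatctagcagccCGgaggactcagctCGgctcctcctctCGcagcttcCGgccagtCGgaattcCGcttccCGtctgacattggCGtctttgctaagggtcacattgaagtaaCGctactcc
Cox6b2, chr7:4753045-4753344, minus strand, 10 CpG: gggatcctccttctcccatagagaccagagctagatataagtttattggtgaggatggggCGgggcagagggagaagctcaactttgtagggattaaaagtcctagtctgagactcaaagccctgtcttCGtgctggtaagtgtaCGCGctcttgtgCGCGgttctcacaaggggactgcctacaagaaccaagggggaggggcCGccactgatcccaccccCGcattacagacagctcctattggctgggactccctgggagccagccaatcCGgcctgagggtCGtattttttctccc
Cox7b, chrX:106015450-106015749, plus strand, 5 CpG: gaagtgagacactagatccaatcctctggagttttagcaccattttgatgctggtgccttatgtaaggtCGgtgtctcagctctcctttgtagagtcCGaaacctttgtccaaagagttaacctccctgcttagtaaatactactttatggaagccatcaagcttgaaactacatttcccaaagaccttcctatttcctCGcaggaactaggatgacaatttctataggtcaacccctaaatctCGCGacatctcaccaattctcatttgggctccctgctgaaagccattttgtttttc
Cox7b2, chr5:71548156-71548455, minus strand, 10 CpG: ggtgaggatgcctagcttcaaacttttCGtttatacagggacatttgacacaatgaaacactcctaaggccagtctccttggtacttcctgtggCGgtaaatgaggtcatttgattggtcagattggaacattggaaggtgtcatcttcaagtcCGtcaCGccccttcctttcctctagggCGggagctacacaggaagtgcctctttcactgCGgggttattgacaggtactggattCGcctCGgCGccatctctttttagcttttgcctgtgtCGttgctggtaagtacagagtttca
Atp5g1, chr11:96075582-96075881, minus strand, 16 CpG: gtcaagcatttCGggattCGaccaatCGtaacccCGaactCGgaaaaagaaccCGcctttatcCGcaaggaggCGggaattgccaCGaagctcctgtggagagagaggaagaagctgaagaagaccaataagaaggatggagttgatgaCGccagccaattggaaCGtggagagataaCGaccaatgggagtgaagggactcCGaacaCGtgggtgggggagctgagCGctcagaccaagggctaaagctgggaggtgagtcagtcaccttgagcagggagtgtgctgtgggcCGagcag

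The widely expressed form had the larger CpG count in 3 of these 4 pairs, and in the pair of Cox7b and Cox7b2 it had the smaller. Among the motifs of factors known to act on these genes, the NRF1 motif GCGCANGCG was in 28.0% of member windows, in 6.25% of all windows and in 14.0% of all windows with 10 or more CpG. The YY1 motif GCCATNTTG was in 17.3%, 2.51% and 4.03%, and the ETS motif CCGGAAG, to which GABP binds, in 21.3%, 8.86% and 17.3%. Both strands were searched, N stands for any base, and none of the letter strings holds another. Of the printed windows, those of Cox8a and Cox6b1 held the ETS motif and that of Cox7b the YY1 motif.

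In the Kdm2b hippocampus the members changed little with genotype. Of 78 members above the filter (a mean of 0.5 FPKM), 1 was called higher in cKO and 0 lower at the thresholds of the study (log2 fold change above 0.4 in size, unadjusted p under 0.05), against 3.89% and 2.25% of all genes tested. The 4 below the filter were Cox6a2, Cox7b2, Cox8b and Cox8c. The median log2 fold change of members was -0.04 (all genes 0.01), 57 of 78 were negative and 74 of 78 lay within 0.2 of no change. At p under 0.05 with no fold threshold 3 were higher and 12 lower by limma, against 23.0% of all genes in either direction. In 18 members every cKO library was below every control library, where 14.3% of all genes did so, and in 2 every cKO library was above, where 14.9% did so.

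The only member past an adjusted p of 0.05, where 8.27% of all genes passed, was Atp5g1 (chromosome 11, 96068852 to 96075670, minus strand, mm10). Its level was 157, 151 and 157 FPKM in control HP and 143, 129 and 125 FPKM in cKO HP. The groups did not overlap, and the log2 fold change was -0.23 (SE 0.06, adjusted p = 0.043, limma). Over 15 settings the difference ranged from -0.29 to -0.19, with adjusted p from 0.021 to 0.17. Atp5g3 read 306, 305 and 300 FPKM in control and 267, 270 and 275 in cKO, again without overlap, at -0.17 (SE 0.04, adjusted p = 0.053). Atp5g2 did not follow, with 99.9 ± 10 FPKM in control and 99.6 ± 12 in cKO.

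ATP synthase had the lowest median among the complexes at -0.10, with 11 of 15 subunits negative and 7 of 15 lower in cKO without overlap. Its catalytic subunits Atp5a1 and Atp5b were among these 7, at -0.08 and -0.10 (adjusted p = 0.38 and 0.31). Complex IV (median -0.06) had 5 of 13 lower without overlap, complex III (-0.05) 3 of 8, complex I (-0.03) 3 of 35 and complex II (-0.01) 0 of 4. All 8 members of complex III had a negative difference, from -0.15 to -0.01, and Uqcrfs1 measured 89.0 ± 4.1 FPKM in control and 81.0 ± 1.1 in cKO (-0.13, adjusted p = 0.13). Cox7b, a small complex IV subunit, was at -0.25 (adjusted p = 0.10) with overlapping groups. The associated factors were the exception, with all 3 positive (median 0.12). Cox7a2l, which joins complexes III and IV into supercomplexes, read 111, 98.3 and 111 FPKM in control and 117, 120 and 116 in cKO (0.14, adjusted p = 0.18).

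Cox7a1 was the single call. It read 1.70, 0.38 and 1.42 FPKM in control HP and 3.63, 2.34 and 1.40 in cKO HP. The highest control library exceeded the lowest cKO library, and the log2 fold change was 0.68 (SE 0.28, adjusted p = 0.19, limma). It was called in 9 of 14 alternatives, and the difference was 0.39 without control 2.

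Most lists of related genes leaned negative in HP, as the members did, while the regulators of mitochondrial biogenesis did not. Of 8 subunits and carriers outside the name pattern, 8 were negative (median -0.15), 1 was called lower and 6 had p under 0.05, which 23.0% of all genes reached. Elsewhere this list was mostly positive with 0 called. Positive were 6 of 7 tested in neurospheres (median 0.17), 6 of 7 in cortex (0.13) and 5 of 7 in the Rnf2 set (0.07). In HP Cycs, cytochrome c, went from 48.8 to 39.1 FPKM (-0.31, adjusted p = 0.020, limma). Cox4i2, the oxygen-responsive form of a complex IV subunit, went from 1.58 to 0.84 FPKM there (-0.50, adjusted p = 0.078). In the TCA cycle and pyruvate dehydrogenase list 15 of 16 were negative, and Pdha1 (-0.24, adjusted p = 0.015) and Idh3a (-0.21, adjusted p = 0.033) passed the adjusted threshold. In glycolysis 14 of 20 were negative and 8 passed it, where 8.27% of all genes did. Hk1, which phosphorylates glucose at the entry of the pathway, was at -0.27 (adjusted p = 0.010, limma). Ldhb, which turns lactate to pyruvate, rose from 59.6 to 81.7 FPKM (0.45, adjusted p = 0.006). Assembly factors (43 tested, from -0.23 to 0.29) were negative in 26 and positive in 17, with no call and 1 with p under 0.05 by limma. Of 77 mitochondrial ribosomal protein genes 50 were negative and 27 positive, with no call and 6 with p under 0.05. The 16 regulators of mitochondrial biogenesis were positive in 9 and negative in 7 (median 0.01), with no call and 3 with p under 0.05.

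Cell type markers moved with genotype in the same libraries. Summed neuron markers were 2783 to 2882 FPKM in control and 2209 to 2539 in cKO HP, with 9 of 10 negative and 4 past the adjusted threshold. Progenitor markers had 5 of 10 called higher and microglia 4 of 8, against 3.89% of all genes. Of the progenitor markers 7 passed the adjusted threshold, which 8.27% of all genes did. Astrocyte and oligodendrocyte lineage markers had 2 of 10 called lower (2.25% of all genes), with sums of 112 to 114 FPKM in control and 90.9 to 101 in cKO. Meninges and choroid plexus markers had 2 of 7 tested called higher, with overlapping sums, and vessel and blood markers had 0 of 8 called. Fewer cells of a type and less RNA per cell cannot be told apart in bulk tissue, and the part of these markers in the member differences was not tested.

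**Figure D4:**
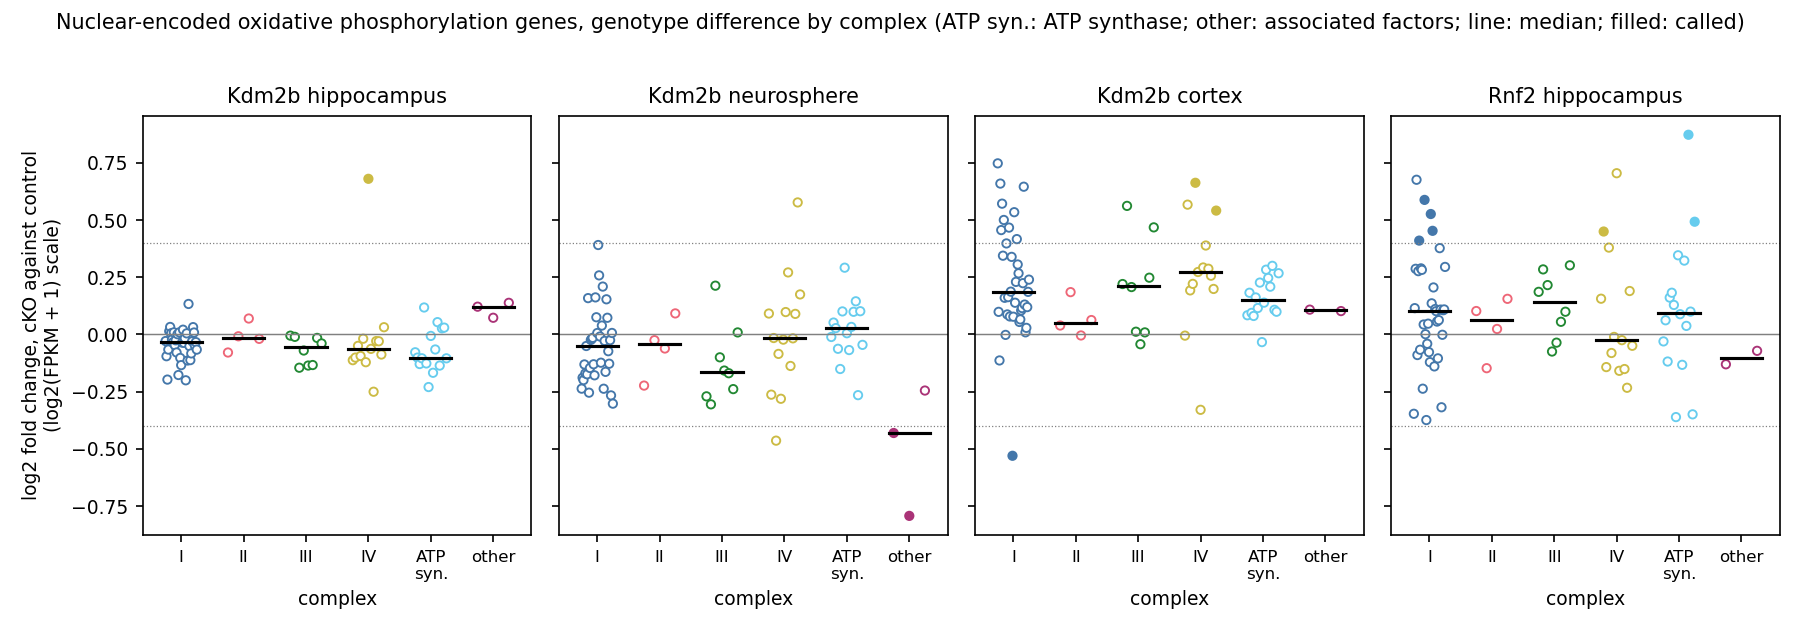
Log2 fold change of each member, cKO against control on the log2(FPKM + 1) scale (vertical axis), by complex (horizontal axis) in the 4 comparisons, with a bar at each median, dotted lines at 0.4 and -0.4 and filled points for called members. In HP 74 of 78 members lie within 0.2 of 0, while the cortical points sit mostly above 0 with a median of 0.19.

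In neurospheres 0 of 79 members were called higher and 2 lower, where 11.4% and 13.2% of all genes were called and 22.3% passed an adjusted p of 0.05. At p under 0.05 limma gave 1 higher and 4 lower, against 38.2% of all genes in either direction, and both called members passed the adjusted threshold. The median was -0.03 (all genes -0.01). Both called members are named for ATP synthase but act beside it. Atp5sl, now called Dmac2, serves the assembly of the complex I membrane arm. It read 11.2 and 12.7 FPKM in control and 6.28 and 6.61 in cKO neurospheres, with no overlap and a log2 fold change of -0.79 (SE 0.10, adjusted p = 0.0061, limma), and it was called in 12 of 12 alternatives.

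Atp5s, also called coupling factor B, read 6.99 and 7.37 FPKM in control and 5.25 and 4.89 in cKO neurospheres. The groups did not overlap and the log2 fold change was -0.43 (SE 0.10, adjusted p = 0.035), called in 10 of 13 alternatives. Atp5g1 went the other way, at 114 and 113 FPKM in control and 132 and 146 in cKO (0.29, SE 0.09, adjusted p = 0.075). Its share of c subunit FPKM was 11.8 to 12.02% in control and 13.9 to 15.2% in cKO.

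Leaving out a cKO library changed the neurosphere median. Without cKO 1 it was 0.09, and without cKO 2 it was -0.19. Counts of calls in these fits rest on 1 cKO library and are not given. Library cKO 1 stood below cKO 2 in 63 of 74 members of at least 10 FPKM that have a gene length in the cortical set (median -0.24, other genes -0.04). Other short genes were lower there too, as genes under 1000 bases had medians of -0.44 for members and -0.37 for others, and genes from 1000 up to 2000 bases -0.31 and -0.19.

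Genes of other metabolic lists had larger single differences in neurospheres. In glycolysis 5 of 20 were called higher and 2 lower. Hk2, the growth-linked hexokinase, went from 2.79 to 6.71 FPKM (1.01, adjusted p = 0.010) and Ldha from 152 to 291 FPKM (0.91, adjusted p = 0.015), while Aldoc, typical of astrocytes, went from 189 to 72.0 FPKM (-1.37, adjusted p = 0.002). Among 16 regulators of mitochondrial biogenesis 4 were called higher and 1 lower. Ppargc1a, a coactivator of mitochondrial genes, went from 9.97 to 4.56 FPKM (-0.99, adjusted p = 0.005) and Polg, the mitochondrial DNA polymerase, from 58.3 to 93.1 FPKM (0.67, adjusted p = 0.005). Assembly factors had 1 of 43 higher (Cox18) and 2 lower (Surf1, Atpaf1). Astrocyte and oligodendrocyte lineage markers were called lower in 8 of 10. Neuron markers had 3 of 8 tested called higher and 3 lower, and progenitor markers 4 of 9 tested higher and 2 lower. Over all genes 11.4% were called higher and 13.2% lower. The part of these markers in the differences was not tested.

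In cortex 2 of 80 members were called higher and 1 lower, against 4.73% and 2.28% of all genes. By limma 0 members passed an adjusted p of 0.05 (0.427% of all genes), and 4 had p under 0.05 (12.8% of all genes). The alternative limma-voom fit on recovered reads called 7 of 79 higher and 0 lower, against 7.69% and 3.03% of all genes, with 0 past the adjusted threshold (3.46% of all genes). The median was 0.19 (all genes -0.01) and 72 of 80 members were positive, and the median depended on which control was kept. Without control 1 the median was 0.38, and without control 2 it was 0.002. Counts of calls in these fits rest on 1 control and are not given.

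The cortical calls were of low members. Cox6b2 read 0.45 and 0.47 FPKM in control (11 and 11 reads) and 1.06 and 1.59 in cKO (23 and 33 reads), without overlap (0.66, SE 0.16, adjusted p = 0.21). Ndufa4l2 read 2.07 and 1.89 FPKM in control (50 and 44 reads) and 3.21 and 3.47 in cKO (69 and 71 reads), also without overlap (0.54, SE 0.10, adjusted p = 0.13). Both were called in 13 of 13 alternatives. In the same cortical libraries, markers of vessels and blood were positive in 10 of 10 with 5 called higher, against 4.73% of all genes. Their summed FPKM was 469 to 487 in control and 677 to 765 in cKO. The 4 meninges and choroid plexus markers above the filter were all called higher. The sum over 8 such markers was 1.00 to 2.48 FPKM in control and 15.3 to 23.2 in cKO. Microglia had 4 of 8 called higher (21.8 to 24.8 and 33.1 to 40.1 FPKM). Astrocyte and oligodendrocyte lineage markers had 2 of 8 tested called higher, and progenitor markers 1 of 10. Neuron markers were negative in 9 of 10 with 1 called lower (2339 to 2361 and 2159 to 2197 FPKM). The part of these lists in the calls was not tested. Ndufb4c, a processed pseudogene of a complex I subunit (chromosome 15, 73809507 to 73809896, minus strand, mm10), read 5.24 and 8.08 FPKM in control and 4.31 and 4.11 in cKO (-0.53, adjusted p = 0.34), and it was called in 7 of 13 alternatives, with a difference of -0.26 and no call without control 2. Reads of such a copy and of its parent gene can be split between them.

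In the Rnf2 hippocampus 7 of 79 members were called higher and 0 lower, against 2.86% and 1.85% of all genes. Adjusted p under 0.05 was reached by 0 members and 0.0% of all genes by limma, with 9 members at p under 0.05, all higher, against 7.11% of all genes in either direction. By limma-voom 7 of 78 members were higher and 0 lower, against 2.55% and 2.5% of all genes, with 0 past the adjusted threshold (0.0797% of all genes). The median was 0.09 (all genes -0.0002). The largest difference was that of Atp5k, subunit e of ATP synthase, which read 24.2 and 11.8 FPKM in control and 33.3 and 30.5 in cKO (0.87, SE 0.31, adjusted p = 0.68). It rested on single libraries, at 0.38 and no longer called without control 2 and at 1.36 without control 1, and it was called in 9 of 13 alternatives. Ndufb10, an accessory subunit of the complex I membrane arm, read 31.6 and 23.7 FPKM in control and 43.6 and 39.8 in cKO (0.59, adjusted p = 0.65). Neither pair of groups overlapped.

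Ndufb6, of the same arm, read 18.2 and 15.7 FPKM in control and 27.5 and 22.3 in cKO (0.53, adjusted p = 0.65). Atp5o, which links the head and stalk of ATP synthase, read 25.6 and 22.6 FPKM in control and 38.3 and 30.7 in cKO (0.49, adjusted p = 0.67). These groups did not overlap either. The other called members, Ndufb8, Cox5b and Ndufa3, differed by 0.45, 0.45 and 0.41. Without control 2 the differences of Ndufb8, Cox5b and Ndufb10 were 0.25, 0.27 and 0.39. The median of members turned with the control left out, being -0.12 without control 2. Counts of calls also changed with the library left out, but those fits leave 1 library in a group, so they are not given.

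Markers of other cell types differed in the same Rnf2 libraries. Vessel and blood markers were negative in 10 of 10 with 1 called lower, and their summed FPKM was 272 to 346 in control and 246 to 258 in cKO, without overlap. Microglial markers were negative in 7 of 8 with 0 called, 0 with p under 0.05 by limma, and sums of 45.8 to 77.2 and 42.6 to 53.4 FPKM. Of 8 meninges and choroid plexus markers 4 were positive and 4 negative (median -0.0008), with differences up to 0.73. Called lower were 3 (Col1a1, Col1a2 and Lum, collagens and a matrix protein of fibroblasts) and called higher 0. The sums of the 8 were 38.2 to 75.8 FPKM in control and 25.4 to 251 in cKO. Neuron markers summed to 2146 to 2207 and 2163 to 2213 FPKM. The part of these markers in the member differences was not tested.

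The control libraries of these 2 sets differed by gene length, and the members are short. The median member length was 1578 bases against 3688 over all genes tested. Among genes of at least 10 FPKM, control 2 stood below control 1 in 63 of 73 members in cortex (median log2 ratio -0.37, other genes 0.001) and in 69 of 70 in the Rnf2 set (-0.44, other genes -0.01). Among genes under 1000 bases the medians were -0.74 for members and -0.30 for others in cortex, and -0.56 and -0.29 in the Rnf2 set. The cKO libraries differed less, with member medians of 0.12 and -0.05. With the length trend removed the genotype median was 0.16 in cortex and 0.06 in the Rnf2 set. That fit called 2 and 6 members higher, where the main fit called 2 and 7.

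**Figure D5:**
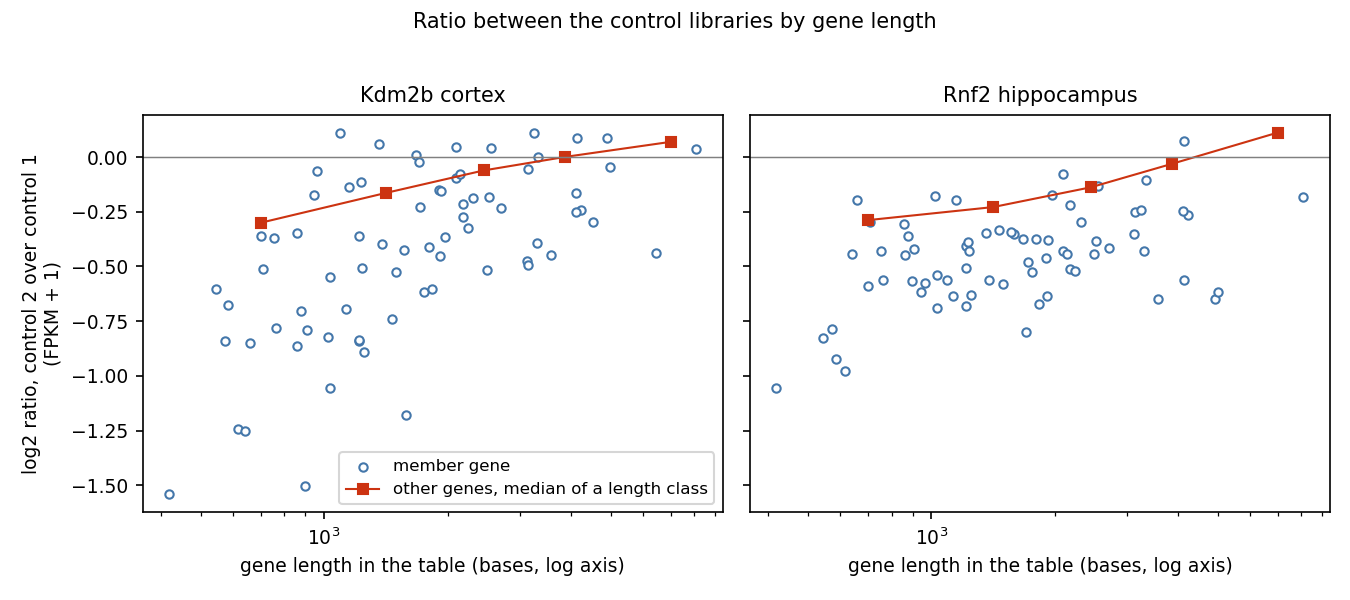
Log2 ratio of control 2 over control 1 on the (FPKM + 1) scale (vertical axis) against gene length in bases (horizontal log axis) in the cortex and the Rnf2 hippocampus, with 1 open point per member and red squares for the median of other genes in each length class. Members lie below 0 in 63 of 73 cases in cortex and 69 of 70 in the Rnf2 set, and the shortest lie lowest.

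Mitochondrial DNA encodes 13 subunits, which stand in the cortical and Rnf2 tables. In cortex 13 of 13 were positive (median 0.19) with 0 called, 0 with p under 0.05 by limma, and summed FPKM of 13936 to 14271 in control and 13762 to 16592 in cKO. In the Rnf2 hippocampus 12 of 13 were negative (median -0.37) and 3 were called lower by limma, against 1.85% of all genes. The calls were mt-Nd2 (-0.47), mt-Nd3 (-0.48) and mt-Nd6 (-0.72), subunits of complex I, at adjusted p from 0.59 to 0.69. The largest fall of the list, at -1.76, was not called. The summed FPKM of all 13 was 29798 to 32144 in control and 22966 to 27145 in cKO, and the groups did not overlap. With all libraries the nuclear members had the opposite sign of median, and the difference between the lists was not tested.

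Genotype differences of single members were compared between sets by an interaction test in limma, which tests the difference of within-table differences. Between neurospheres and HP, 3 of 77 members differed at an adjusted p under 0.05, against 26.9% of all genes, and 10 had an unadjusted p under 0.05 (39.2% of all genes). The 3 were Atp5g1 (neurosphere minus HP 0.52, SE 0.10, adjusted p = 0.0040), Atp5sl (-0.87, SE 0.13, adjusted p = 0.00089) and Atp5s (-0.55, SE 0.18, adjusted p = 0.044), the last of which had an adjusted p of 0.054 with a pseudocount of 0.1. Between cortex and HP, 1 of 77 differed, against 1.61% of all genes, and it was Atp5g1 (cortex minus HP 0.46, SE 0.10, adjusted p = 0.047). An unadjusted p under 0.05 was reached by 17 members and 14.0% of all genes. Atp5g1 in cortex read 10.6 and 11.3 FPKM in control and 12.3 and 13.6 in cKO, a difference of 0.23 (adjusted p = 0.37, limma). Its level differed by format between these sets, and the part of format in the interaction was not tested. Between Rnf2 HP and Kdm2b HP, 0 of 77 differed by limma, against 0.683% of all genes, and 15 had an unadjusted p under 0.05 (15.5% of all genes). Dmac2, the newer name under which the cortical and Rnf2 tables list Atp5sl, read 6.61 and 7.85 FPKM in control cortex and 6.47 and 7.28 in cKO cortex (-0.06, adjusted p = 0.86), and differed by 0.05 in Rnf2 HP (adjusted p = 0.97).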

How the data were processed

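RNA-seq libraries of P0 hippocampus (HP), hippocampal neurospheres and cortex were made from poly-A RNA with the NEBNext Ultra II kit, which was not stated to mark strand. Values are FPKM, deposited by the authors for each library. The study's methods describe cutadapt trimming, STAR alignment to mm10 and Cufflinks 2.2.1 for HP and neurospheres, while the submitters' processing notes name the same tools for the series without saying how the cortical and Rnf2 tables were made. Those 2 tables add Ensembl identifiers and gene lengths, and FPKM times length gave whole reads for 100% of values within 0.05. Reads recovered in this way were used in limma-voom as an alternative, with a minimum mean of 10 reads. Gene lengths of the cortical set also served for HP and neurospheres, which come without lengths. The main test was limma 3.58.1 (R 4.3.3, lmFit, eBayes with trend) on log2(FPKM + 1), after dropping names whose mean was below 0.5 FPKM, each table by itself, with Benjamini-Hochberg adjustment over all genes tested. A fold change on this scale understates the change of low genes.

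Following the study's thresholds, a call needed an unadjusted p under 0.05 and a log2 fold change beyond 0.4 or -0.4, and an adjusted p under 0.05 was the second call. Joined entries such as Cox6b1 with Upk1a counted where a part matched, and their FPKM cannot be split (6 members in HP, 3 in neurospheres). The row of highest mean stood for a name listed more than once. Genes named in the text were the called members with the largest changes (up to 4 in each direction), the 2 most abundant of each complex, core subunits, paralogue sets, and members past the adjusted threshold in several comparisons. Members and lists were chosen with earlier results of these data known. Promoter windows came from RefSeq tables of GRCm38.p6. The fits were tested on simulated data. Alternatives were another pseudocount (0.1), no filter, 2 other scalings, no trend, a replicate block, summed rows, voom, removal of the gene length trend (chosen after seeing the data) and leaving out each library. Whether numbers pair libraries was checked by the correlation of same-numbered deviations, 0.05, -0.10 and -0.09 in HP, so no pairing was assumed. The paper gives a common sequencing depth, but the reads behind each HP and neurosphere value are unknown, which limits the reading of low values there.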

Additional observations from a re-analysis of the deposited data

Results flagged for a closer look

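For 3 members the genotype difference depended on the sample compared. The difference of log2 fold changes between neurospheres and hippocampus was 0.52 for Atp5g1 (SE 0.10, adjusted p = 0.0040, interaction test in limma), which read lower in 3 of 3 cKO hippocampi and higher in both cKO neurosphere libraries than in any control of the same set. For Atp5s the difference was -0.55 (SE 0.18, adjusted p = 0.044) and for Atp5sl it was -0.87 (SE 0.13, adjusted p = 0.00089), both from a fall in neurospheres beside a small positive difference in hippocampus that did not pass the test (0.12 for Atp5s and 0.07 for Atp5sl). With a pseudocount of 0.1 Atp5s had an adjusted p of 0.054 in this test. For Atp5g1 the difference between cortex and hippocampus was 0.46 (SE 0.10, adjusted p = 0.047), between formats in which its level differed. Within cortex alone Atp5g1 differed by 0.23 (adjusted p = 0.37, limma). All of these share the hippocampal libraries. No cause was tested. Groups of 2 or 3 libraries are too small for a test of single outlying libraries.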

How the results depend on the processing

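Of the summary values under alternatives, 142 stayed within the spread or within 1.5 times the main count and 39 moved. No named member called in a comparison changed sign there, but 4 medians of members did, those of neurospheres when rescaled to the same FPKM total (0.092), without control 1 (0.017) and without cKO 1 (0.091), and that of the Rnf2 set without control 2 (-0.12). In HP the members called higher numbered 1, against 0 with no filter on low values, 0 with no eBayes trend, 0 at an adjusted p, 3 with no fold threshold (12 lower) and 0 to 1 with a library left out. In neurospheres 0 were called higher, against 1 with libraries rescaled to the same FPKM total, 1 with the length trend removed, 1 with crossed pairing, 1 with no fold threshold and 0 to 5 with a library left out. There 2 were called lower, against 1 rescaled, 1 with the length trend removed, 4 with no fold threshold and 1 to 13 with a library left out, where the median ran from -0.19 to 0.091. In cortex 2 were higher, against 7 by voom, 0 at an adjusted p and 2 to 35 with a library left out, and 1 lower, against 0 with no filter, 0 by voom, 0 with the length trend removed, 0 at an adjusted p and 0 to 1 with a library left out, where the median ran from 0.0017 to 0.38. In the Rnf2 set 7 were higher, against 4 with no filter, 0 at an adjusted p and 0 to 22 with a library left out, and 0 lower, against 0 to 13 with a library left out, where the median ran from -0.12 to 0.27. The cause was not tested. Members whose genotype effect differed between HP and neurospheres numbered 6 with median-ratio scaling and 2 with a pseudocount of 0.1 (Atp5s lost) against 3, and between HP and cortex 2 with a pseudocount of 0.1 against 1.

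With the replicate number as a block, HP gave 1 higher and 0 lower, neurospheres 0 and 2, cortex 3 and 1, and the Rnf2 set 8 and 0. Same-numbered deviations correlated at -0.28 in neurospheres, -0.05 in cortex and 0.16 in the Rnf2 set, and no HP library correlated best with its own number. Crossed pairing of neurospheres gave 1 higher and 2 lower. Over all genes, adjusted calls numbered 67 by limma and 581 by voom in cortex, and 0 and 13 in the Rnf2 set. Low members such as Cox7a1 and Cox6b2 rest on few reads, and 2 libraries per group leave a single library able to set a count.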
